A study of Mus musculus with 40 samples.

Results

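The pre-B cell receptor and the proteins that pass on its signal were followed at the RNA level through 10 genes in 4 sorted mouse bone marrow populations. The 10 genes were taken by symbol out of 49585 gene rows: the surrogate light chain genes Vpreb1, Vpreb2, Vpreb3 and Igll1, the co-receptor genes Cd79a and Cd79b, the adaptor gene Blnk and the kinase genes Blk, Syk and Btk. All 10 were found in the table. Mice of 2 genotypes on a C57BL6/129Ola background were compared, at 46 to 51 days of age. The 5 Mbd3del mice carried Mbd3_Del/Del, a deletion of both alleles of Mbd3, which encodes a subunit of the NuRD chromatin remodelling and deacetylase complex. The 5 control mice carried Mbd3_Flox/Flox, intact alleles flanked by recombination sites. The recombinase and the cells in which it acted are not given in the labels. From every mouse 4 pools of cells were sorted. Haematopoietic stem cells (HSCs) were CD45+ CD150+ CD48- EPCR+. Lymphoid-primed multipotent progenitors (LMPPs) were negative for lineage markers and B220, positive for Sca-1 and c-Kit, high for Flt3 and negative for the interleukin 7 receptor. All-lymphoid progenitors (ALPs) differed from LMPPs in carrying that receptor, without Ly6D, and B-biased lymphoid progenitors (BLPs) carried both the receptor and Ly6D. This gave 8 groups of 5 libraries, 40 in all, each made from 1 pool of cells of 1 mouse.

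During B cell development the immunoglobulin heavy chain is made before the light chain. It is carried to the cell surface by a surrogate light chain, formed by a VpreB protein and the lambda-like protein encoded by Igll1, and the assembled complex is the pre-B cell receptor, which tests whether a usable heavy chain has been made. The co-receptor chains Cd79a and Cd79b carry the signal inwards: Src-family kinases such as Blk phosphorylate their tails, the kinase Syk docks there, and Syk phosphorylates the adaptor Blnk, which brings in the kinase Btk. The transcripts of the surrogate light chain genes and Cd79a are classical early markers of B lineage commitment, under the control of Ebf1, E proteins and Pax5.

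Mbd3 itself was checked first. Its level, in CPM (counts scaled to the same gene total in every library), was at most 3.24 CPM in any Mbd3del library and at least 8.18 CPM in any control library, so no Mbd3del library overlapped a control library. By edgeR it fell in Mbd3del HSCs, LMPPs and BLPs (adjusted p = 0.0365, 0.00986 and 0.0105), while in ALPs its adjusted p was 0.128. The Mbd3del LMPP libraries, whose titles call the allele floxed, also followed their genotype field, with at most 1.18 CPM. Gene totals ranged from 2974305 to 9082610 counts per library. The transcripts of the sort markers followed the gates: Ly6d averaged 9902 ± 3585 CPM in Mbd3del BLPs against 269 ± 150.0 CPM in Mbd3del ALPs, and 7785 ± 2867 CPM in control BLPs against 85.5 ± 26.1 CPM in control ALPs (SD, n = 5 each). In 2 control mice, mouse10372 and mouse10381, the sex-linked transcripts went against the labelled sex in all 4 libraries, so results that include control mice were also computed without them. The sources do not say whether the mice were littermates or were handled on the same day. In pools of cells, fewer cells that express a gene and less RNA per cell cannot be told apart.

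The sequences just upstream of the RefSeq start sites of the surrogate light chain genes, Cd79a and Blnk are shown first. These genes were low in LMPPs and higher on average in BLPs in both genotypes. RefSeq (GRCm38.p6) gave a start site for 8 of the 10 genes, with a second one for Syk, and Cd79b and Blk had no entry. The 250 bases before the start, written 5′ to 3′ on the gene's strand, lie at chr16:16869256-16869505 (minus strand) for Vpreb1, chr16:17980315-17980564 (plus) for Vpreb2, chr16:16863986-16864235 (minus) for Igll1, chr10:75948050-75948299 (plus) for Vpreb3, chr7:24897247-24897496 (plus) for Cd79a and chr19:40994222-40994471 (minus) for Blnk. By the gene bounds of the GENCODE M21 annotation, the windows of Vpreb1, Vpreb3 and Blnk lie inside the gene. Those of Vpreb2 and Cd79a cross its start, and only that of Igll1 lies wholly outside. All distances below therefore depend on the RefSeq start used. Capitals mark matches, on either strand, to the Ebf1 core CCCNNGGG, the E protein E box CAGGTG and the octamer ATTTGCAT.
Vpreb1: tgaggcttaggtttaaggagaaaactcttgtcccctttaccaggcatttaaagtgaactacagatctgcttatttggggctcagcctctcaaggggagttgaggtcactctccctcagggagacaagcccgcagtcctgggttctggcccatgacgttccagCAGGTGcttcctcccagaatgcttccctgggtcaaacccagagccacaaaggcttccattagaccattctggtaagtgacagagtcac
Vpreb2: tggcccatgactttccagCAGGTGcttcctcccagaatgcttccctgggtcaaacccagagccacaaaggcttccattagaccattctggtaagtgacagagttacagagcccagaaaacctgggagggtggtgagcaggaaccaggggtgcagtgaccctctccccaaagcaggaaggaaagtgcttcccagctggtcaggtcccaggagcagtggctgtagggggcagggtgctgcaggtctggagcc
Igll1: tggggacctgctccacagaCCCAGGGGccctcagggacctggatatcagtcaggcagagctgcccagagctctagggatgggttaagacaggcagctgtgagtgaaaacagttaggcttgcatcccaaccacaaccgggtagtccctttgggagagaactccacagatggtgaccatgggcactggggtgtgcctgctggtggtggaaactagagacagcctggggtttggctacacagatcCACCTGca
Vpreb3: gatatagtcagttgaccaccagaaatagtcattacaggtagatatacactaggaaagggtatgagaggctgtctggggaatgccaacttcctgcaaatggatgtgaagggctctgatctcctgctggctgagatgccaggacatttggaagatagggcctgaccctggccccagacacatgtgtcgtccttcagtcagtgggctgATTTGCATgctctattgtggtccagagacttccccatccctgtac
Cd79a: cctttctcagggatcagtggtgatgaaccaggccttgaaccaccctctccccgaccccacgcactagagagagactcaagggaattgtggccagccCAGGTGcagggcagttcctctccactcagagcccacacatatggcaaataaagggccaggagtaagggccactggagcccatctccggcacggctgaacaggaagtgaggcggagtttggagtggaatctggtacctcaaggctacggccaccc
Blnk: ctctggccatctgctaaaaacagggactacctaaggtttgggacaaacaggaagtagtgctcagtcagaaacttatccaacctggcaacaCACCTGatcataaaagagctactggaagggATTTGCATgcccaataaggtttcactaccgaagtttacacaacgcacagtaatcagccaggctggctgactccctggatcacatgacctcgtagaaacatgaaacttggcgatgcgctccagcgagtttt
No matches overlapped. The E box, or its reverse CACCTG, was found in the windows of Vpreb1, Vpreb2, Igll1, Cd79a and Blnk, beginning 88, 232, 8, 154 and 160 bases before the RefSeq start. It was also found upstream of both Syk starts. The octamer, bound by Oct factors with the co-activator Pou2af1, began 45 bases before the Vpreb3 start and 130 bases before the Blnk start. Igll1 had an Ebf1 core match beginning 231 bases before its start. Btk had none of the 3 motifs. Among 32851 upstream windows of the same length, 17.2% held the E box, 11.8% the Ebf1 core and 1.60% the octamer. Such matches describe letters and are not evidence of binding.

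Vpreb1 and Vpreb2 are near-identical copies, and the sequences show it: 106 bases of the Vpreb1 window align to the Vpreb2 window at an offset of 144 bases, of which 104 are identical. Within the transcripts, 226 of the 724 stretches of 50 bases in Vpreb1 (31.2%) also occur in Vpreb2. Reads that lie within such stretches cannot be given to 1 gene, so the counts of both are uncertain. No other member shared exon bases with an annotated neighbour.

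**Figure D1:**
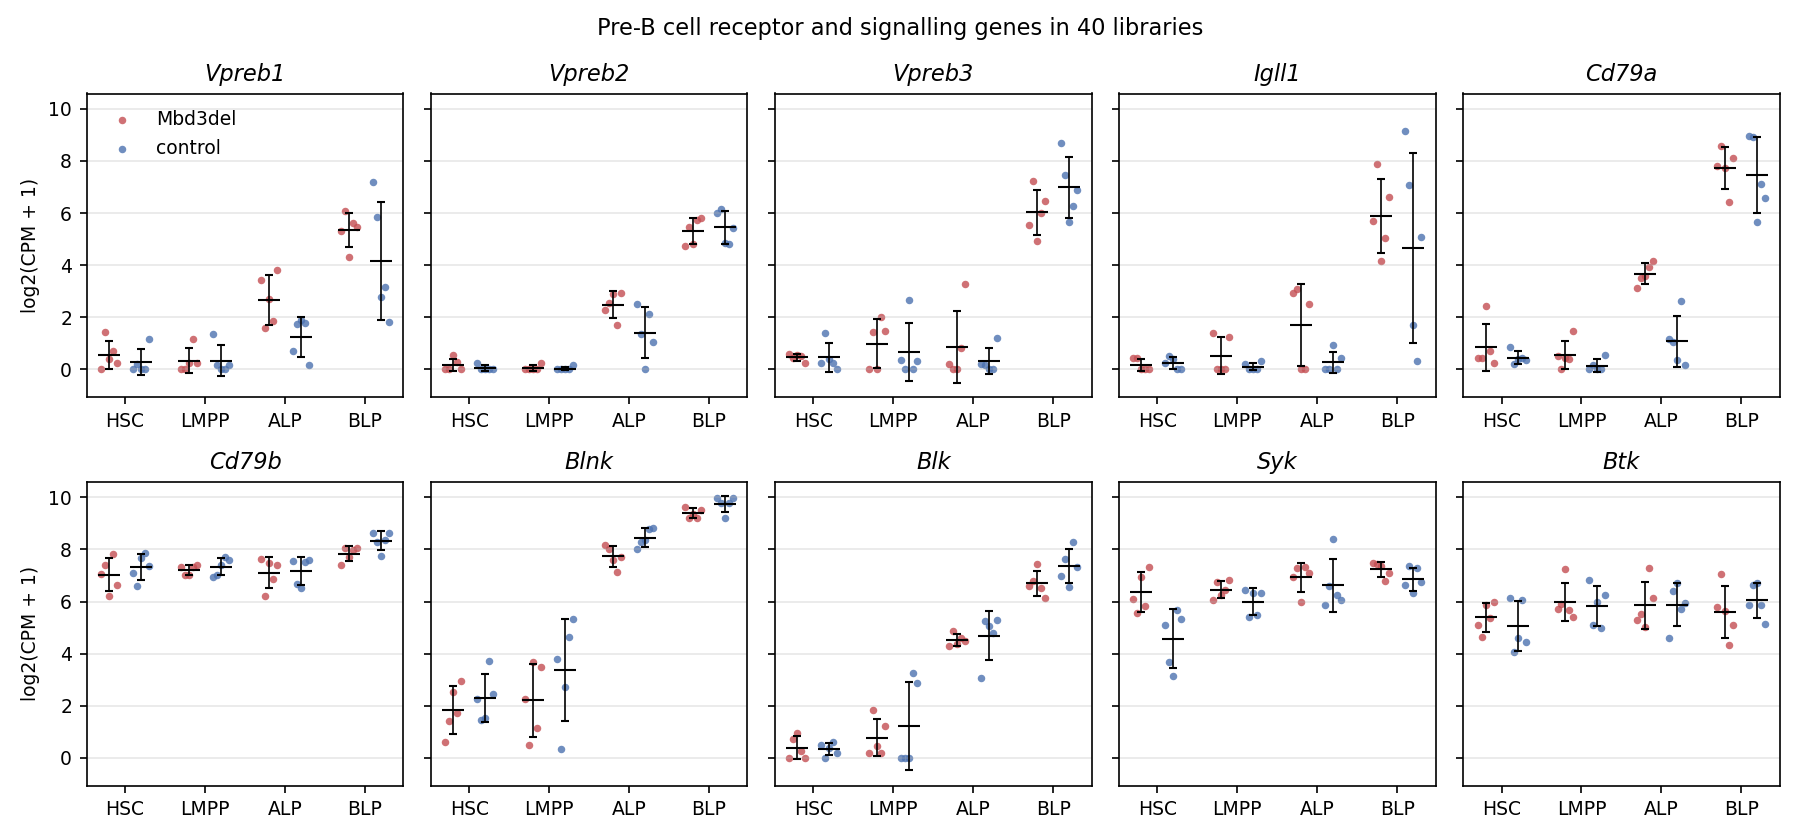
Level of each of the 10 genes in every library, as log2(CPM + 1), by population and genotype (Mbd3del left, control right). Points are mice, bars are the mean ± SD of 5. The 4 surrogate light chain genes and Cd79a are near 0 in HSCs and LMPPs and highest in BLPs. Blnk and Blk are already high in ALPs, and Cd79b, Syk and Btk are present in all 4 populations.

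The 10 genes followed 3 courses along the populations. Vpreb1, Vpreb2, Vpreb3, Igll1 and Cd79a were close to absent in HSCs and LMPPs, with at most 5.25 CPM in any of those 20 libraries, and were highest in BLPs. Blnk and Blk were low in LMPPs and high in ALPs and BLPs. Cd79b, Syk and Btk had at least 7.76 CPM in every library of every population.

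Igll1, the lambda-like chain, was nearly confined to BLPs. In ALPs it had 6.55, 7.45, 0, 0 and 4.67 CPM in Mbd3del mice mouse10360, mouse10361, mouse10365, mouse10376 and mouse10384, against 0, 0, 0.892, 0 and 0.348 CPM in control mice mouse10357, mouse10358, mouse10372, mouse10380 and mouse10381; values of single mice are given in these orders throughout. In BLPs it had 50.9, 233, 16.98, 31.8 and 96.7 CPM in Mbd3del mice against 561, 133, 2.22, 0.256 and 32.6 CPM in control mice. The genotypes overlapped in both populations, and control BLPs held both the highest and the lowest values. A count of 3 equals 0.330 to 1.01 CPM depending on the library, so the control ALP values and the control BLP value of mouse10380 are at the limit of detection.

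Vpreb1, which encodes a VpreB chain, had 9.76, 2.005, 5.56, 2.62 and 12.9 CPM in Mbd3del ALPs against 0.612, 2.36, 2.68, 2.42 and 0.116 CPM in control ALPs. In BLPs it had 38.7, 67.4, 19.1, 47.9 and 42.9 CPM in Mbd3del mice against 143, 57.0, 5.93, 7.92 and 2.505 CPM in control mice. The Mbd3del values lay within the range of the control values, of which 3 were below every Mbd3del value and 1 above. Its close copy Vpreb2 was more even. It had 25.6, 42.8, 27.4, 52.2 and 55.4 CPM in Mbd3del BLPs against 63.5, 69.9, 28.2, 27.0 and 42.3 CPM in control BLPs, which overlapped widely, and at most 6.65 CPM in any ALP library. Vpreb3, whose product associates with newly made heavy chains, had 45.9, 147, 29.5, 62.7 and 87.6 CPM in Mbd3del BLPs against 413, 177, 48.9, 75.5 and 118 CPM in control BLPs. In ALPs it exceeded 1.5 CPM in 1 library, that of Mbd3del mouse10384, with 8.63 CPM.

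Cd79a and Cd79b encode partners of 1 heterodimer, yet their transcripts ran differently. Cd79b had 72.7 to 225 CPM in Mbd3del HSCs and 94.9 to 232 CPM in control HSCs, where the surrogate light chain transcripts were near 0. Cd79a had at most 4.44 CPM in any HSC library. In ALPs Cd79a had 7.67, 10.3, 11.1, 14.1 and 16.98 CPM in Mbd3del mice against 1.22, 1.05, 0.297, 5.17 and 0.116 CPM in control mice, and every Mbd3del value lay above every control value. In BLPs it had 225, 375, 211, 85.6 and 277 CPM in Mbd3del mice against 498, 485, 49.1, 139 and 95.2 CPM in control mice, which overlapped. Cd79b in BLPs had 169, 263, 207, 253 and 265 CPM in Mbd3del mice against 393, 307, 212, 331 and 392 CPM in control mice, which overlapped only through control mouse10372.

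Blnk, the adaptor, was already abundant in ALPs. It had 3.82, 0.400, 11.8, 1.22 and 10.1 CPM in Mbd3del LMPPs against 13.05, 0.249, 5.56, 24.0 and 38.7 CPM in control LMPPs. In ALPs it had 287, 259.7, 194, 139 and 209 CPM in Mbd3del mice against 255, 307, 330.0, 442 and 451 CPM in control mice, and in BLPs 793, 589, 663, 591 and 729 CPM against 1009, 889, 586, 869 and 992 CPM. Every ALP library was above every LMPP library, and every BLP library above every ALP library. The Src-family kinase gene Blk followed with lower values: 18.7, 28.4, 19.4, 23.2 and 21.7 CPM in Mbd3del ALPs against 7.34, 36.9, 32.1, 27.0 and 38.5 CPM in control ALPs, and 94.8, 111, 173, 91.0 and 69.7 CPM in Mbd3del BLPs against 126, 196, 93.7, 313 and 160.0 CPM in control BLPs. Here too every BLP library was above every ALP library, and the genotypes overlapped.

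Syk and Btk, the kinases downstream of the co-receptor, are used in many blood cells and were present throughout. Syk in HSCs had 68.3, 46.4, 123, 56.2 and 161 CPM in Mbd3del mice against 32.9, 11.7, 7.76, 50.5 and 39.2 CPM in control mice, which overlapped through a single pair of libraries. In BLPs Syk had 109 to 178 CPM in Mbd3del mice and 78.7 to 162 CPM in control mice. Btk ranged from 19.0 to 156 CPM over the 20 Mbd3del libraries and from 15.6 to 113 CPM over the 20 control libraries.

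Compared per length, in TPM (counts scaled by the length of all annotated exons of a gene together and then to the same total in every library), the co-receptor genes stood at or near the top in BLPs. In Mbd3del BLPs Cd79a averaged 447 ± 214 TPM, Cd79b 442 ± 81.7 TPM, Blnk 307 ± 43.4 TPM and Vpreb3 239 ± 157 TPM (SD, n = 5). The other surrogate light chain genes averaged 146 ± 46.1 TPM for Vpreb2, 111 ± 118 TPM for Igll1 and 98.5 ± 41.8 TPM for Vpreb1. Among the kinases, Blk averaged 110.2 ± 44.1 TPM, and Btk and Syk were lowest of all, at 51.3 ± 40.8 TPM and 44.5 ± 10.1 TPM. In control BLPs the order was Cd79b at 641 ± 123 TPM, Vpreb3 at 539 ± 461 TPM, Cd79a at 487 ± 423 TPM, Blnk at 407 ± 66.2 TPM, Blk at 186 ± 88.1 TPM, Igll1 at 185 ± 299.98 TPM, Vpreb2 at 171 ± 72.8 TPM, Vpreb1 at 100.4 ± 137 TPM, Btk at 63.9 ± 29.9 TPM and Syk at 36.1 ± 11.2 TPM. Most neighbours in these orders differed by less than 1 SD. The orders also depend on the length used. For Vpreb1 all exons together had 1199 bases and the longest transcript 773, while for Vpreb2 both had 759. Syk, last in both orders, had the longest exons of the 10 genes, at 9362 bases.

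The steps between populations were tested within each genotype by edgeR's quasi-likelihood test with Benjamini-Hochberg adjustment over all genes tested, at 0.05. From HSCs to LMPPs no member was called in either genotype, with 4 members tested in each. Of all genes tested, 2.99% rose in Mbd3del mice and 2.76% in control mice. At an unadjusted p under 0.05 there were 0 members in Mbd3del mice and 1 in control mice, Syk, and DESeq2 called none and gave the same counts of 0 and 1. Of all genes tested by edgeR, 2131 of 11365 in Mbd3del and 1938 of 11043 in control mice had such a p.

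In Mbd3del mice 4 of 8 tested members rose at the step to ALPs, against 1.11% of all genes tested. Members near 0 in Mbd3del LMPPs, such as Vpreb2 and Cd79a with 1 and 16 counts in all, passed the expression filter only through ALPs. They could be seen to rise but not to fall, which the share over all genes does not allow for. Blnk rose by 5.43 ± 0.69 on the log2 scale (SE, adjusted p = 0.000576) and Blk by 4.66 ± 0.84 (adjusted p = 0.00836). Vpreb2 and Cd79a rose by 6.63 ± 1.24 (adjusted p = 0.00969) and 4.46 ± 1.03 (adjusted p = 0.0351). Vpreb2 had 1 count in all 5 Mbd3del LMPP libraries and 168 in the 5 Mbd3del ALP libraries, a ratio of 149 after scaling (exact 95% interval 26.5 to 5937, counting error only), and its fitted change depends on the prior count. With the mouse as a block both lost their call, Vpreb2 at an adjusted p = 0.0542 and Cd79a at 0.0922 (edgeR). Blnk and Blk were called in every alternative, while Vpreb2 was lost without mouse10360 (0.0765), mouse10361 (0.0676) or mouse10365 (0.0645), and Cd79a without mouse10360 (0.171), mouse10361 (0.0886), mouse10365 (0.141) or mouse10376 (0.0971). Without the filter on low counts both fell short as well (0.0688 and 0.0564). Leaving out mouse10376 brought Vpreb1 past the threshold, at 0.0424, against 0.118 with all mice. DESeq2 (0.00210) and edgeR's newer estimator (0.0464) called Vpreb1 as well.

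In control mice 1 of 5 tested members rose at the same step, against 0.469% of all genes tested. This was Blnk, by 4.43 ± 0.77 on the log2 scale (edgeR adjusted p = 0.00914), and its call was lost without mouse10357 (0.0799), without mouse10372 (0.0502), and without both mouse10372 and mouse10381 (0.195), and with no filter on low counts (0.0776). Blk, at 3.20 ± 1.35, had an adjusted p = 0.568, but was called in the joint fit (0.0194) and with edgeR's newer estimator (0.0282). In control LMPPs mouse10380 and mouse10381 had 8.63 and 6.29 CPM of it, and the other 3 had 0. Vpreb1, Vpreb2, Vpreb3, Igll1 and Cd79a were too low in both control groups to pass the filter of this fit. DESeq2, run without that filter, called 2 members at this step, Blnk and a gene of that group. The joint fit, filtered over all groups, also called members of that group.

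Between ALPs and BLPs, 4 of 10 members rose in Mbd3del mice, against 0.507% of all genes tested. Cd79a rose by 4.33 ± 0.38 on the log2 scale (edgeR adjusted p = 7.41e-05), Blk by 2.33 ± 0.29 (0.000984), Blnk by 1.68 ± 0.22 (0.00201) and Vpreb2 by 3.12 ± 0.49 (0.00651). Just short of the threshold lay Vpreb1, at 2.73 ± 0.59, and Vpreb3, at 5.26 ± 1.13, both with an adjusted p = 0.0518, and Igll1, at 4.53 ± 1.05, with 0.0738. With the mouse as a block Vpreb2 lost its call (0.0578), and Vpreb3 (0.0389) and Igll1 (0.0473) gained one. Vpreb2 was also lost without mouse10360 (0.0559) or mouse10361 (0.0581), and Vpreb3 was called without mouse10384 (0.00220), whose ALP library was the only Mbd3del one above 1 CPM. A joint fit of all 40 libraries called neither Blnk (0.293), Blk (0.254) nor Vpreb2 (0.0654), but did call Vpreb3 (0.0336). Size factors of DESeq2 in edgeR brought in Vpreb1 and Vpreb3 (both 0.0498), and dropping the filter brought in Vpreb1 (0.0210). DESeq2 called Vpreb1 (0.000155), Vpreb3 (0.0150) and Igll1 (0.0332), as did edgeR's newer estimator (0.00627, 0.000128 and 0.00207).

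In control mice 5 of 9 tested members rose at this step, against 0.238% of all genes tested. Members near 0 in control ALPs, such as Vpreb3 and Cd79a with 13 and 65 counts in all, passed the filter only through BLPs. They could be seen to rise but not to fall, which the share over all genes does not allow for. Vpreb3 rose by 8.85 ± 0.90 on the log2 scale (edgeR adjusted p = 0.000244) and Cd79a by 7.18 ± 0.93 (0.00186). Blk rose by 2.73 ± 0.44 (0.0113), Vpreb2 by 4.40 ± 0.78 (0.0268) and Blnk by 1.34 ± 0.26 (0.0394). Vpreb1, at 4.76 ± 1.13, was not called (0.192), nor was Cd79b, at 1.18 ± 0.30 (0.314). Vpreb1 was called by DESeq2 (0.0005), with edgeR's newer estimator (0.0132) and without the filter (0.0387), and Cd79b by DESeq2 (0.0289). Igll1 was not tested in this edgeR fit, since fewer than 5 libraries reached the minimum of the expression filter. DESeq2, run without that filter, called 8 members at this step, Igll1 among them. With the mouse as a block Vpreb2 (0.108) and Blnk (0.106) lost their calls. Vpreb2 and Blnk were also lost without mouse10357 (0.142 and 0.486), mouse10358 (0.405 and 0.458) or mouse10381 (0.253 and 0.263), and Blk without mouse10358 (0.117) or mouse10381 (0.106). Without both mouse10372 and mouse10381, Vpreb3 and Cd79a kept their calls and the other 3 did not; the joint fit lost Blnk (0.443) and Blk (0.136), and dropping the filter lost Cd79a (0.112).

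**Figure D2:**
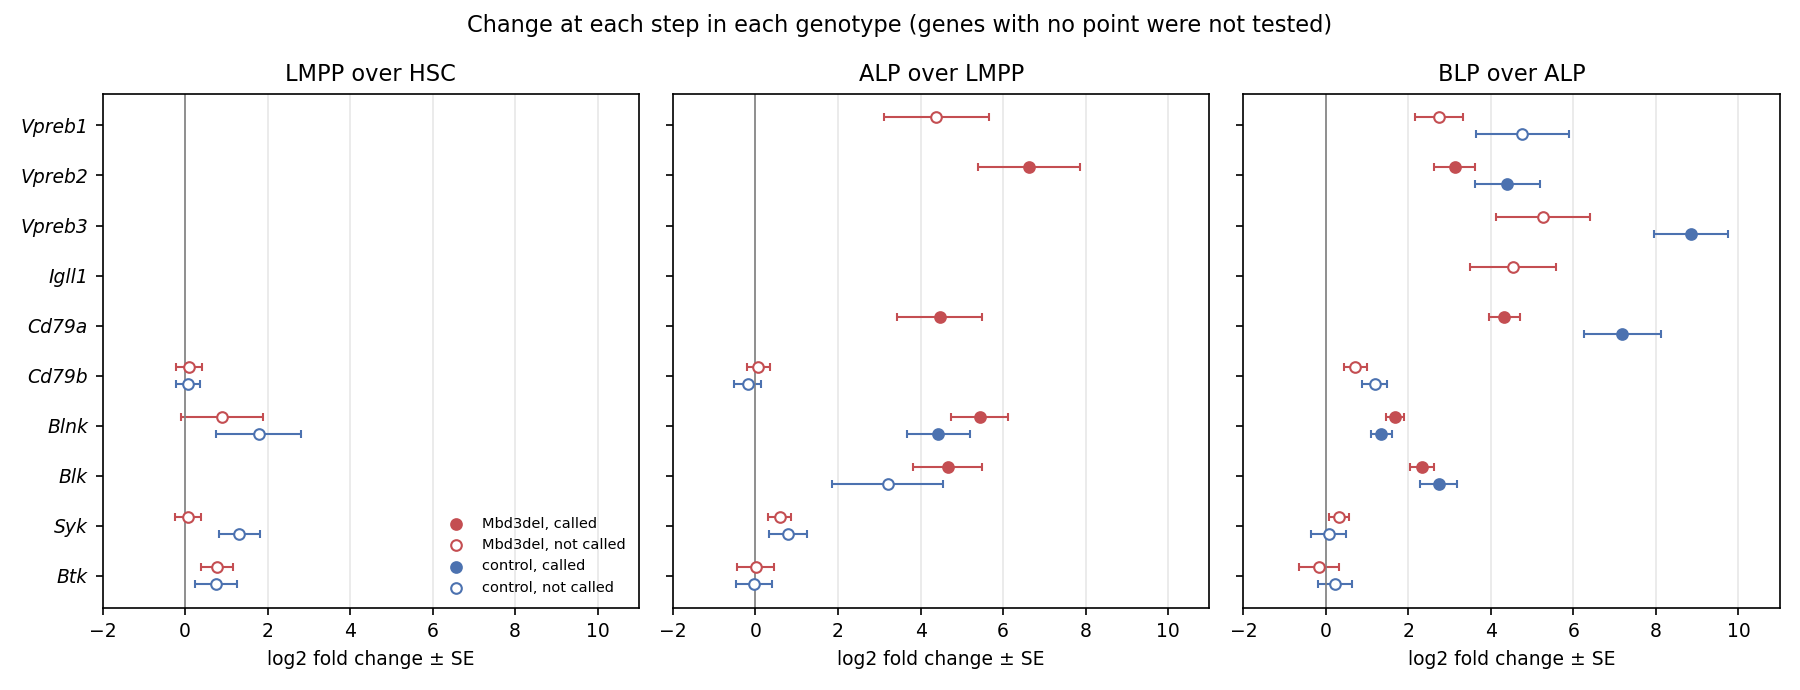
Log2 fold change ± SE of each gene at each step, in Mbd3del mice (upper point of a pair) and control mice (lower point); filled points passed the test. No point is filled at the step from HSCs to LMPPs, 4 Mbd3del and 1 control points are filled at the step to ALPs, and 4 Mbd3del and 5 control points at the step to BLPs.

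No member was called between genotypes in any population. In ALPs edgeR did not call the deleted gene Mbd3 itself either (adjusted p = 0.128). The filter passed 4 members for HSCs, 4 for LMPPs, 8 for ALPs and 10 for BLPs, and edgeR called 0 of them, as did DESeq2 and every other alternative. Over all genes tested, 0.0176% were called (HSCs), 0.0183% (LMPPs), 0.0182% (ALPs) and 0.0743% (BLPs). Members at an unadjusted p under 0.05 numbered 1, 0, 2 and 2 in the same order by edgeR, and 1, 0, 4 and 3 by DESeq2. Of all genes tested by edgeR, 467 of 11358, 566 of 10918, 253 of 11009 and 895 of 10772 had such a p. In HSCs the member was Syk, at 1.56 ± 0.47 on the log2 scale (edgeR adjusted p = 0.955).

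In ALPs Cd79a had a log2 fold change of 2.83 ± 1.05 and Blnk one of -0.69 ± 0.28, both with an edgeR adjusted p = 0.9999. Cd79a in ALPs was the only case in which the 2 genotypes did not overlap; 0.772% of all genes tested in ALPs showed no overlap. For the other populations, where every member overlapped, that share was 1.02% (HSCs), 1.46% (LMPPs) and 2.58% (BLPs). Vpreb1, at 2.08 ± 1.07, and Vpreb2, at 1.15 ± 1.08, pointed the same way as Cd79a. Ly6d, whose product separates BLPs from ALPs in the sort, averaged 269 ± 150.0 CPM in Mbd3del ALPs against 85.5 ± 26.1 CPM in control ALPs (SD, n = 5 each), and its part in the Cd79a difference was not tested.

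In BLPs all 10 members were tested. Vpreb3 was at -1.12 ± 0.52 on the log2 scale, Blk at -0.71 ± 0.31, Cd79b at -0.47 ± 0.21 and Blnk at -0.35 ± 0.17, with edgeR adjusted p-values of 0.602, 0.569, 0.569 and 0.615. Igll1, at -0.72 ± 1.37, and Vpreb1, at 0.07 ± 0.81, had the widest errors. The median over the 10 members was -0.32, against -0.03 over all genes tested. In the same libraries 1 of 6 tested neutrophil and monocyte marker genes rose, Ly6c2, with 193 ± 129 CPM in Mbd3del and 29.4 ± 13.4 CPM in control BLPs (2.73 ± 0.43, adjusted p = 0.0384). Among all 10772 genes tested in BLPs, 6 rose. The summed level of the 11 genes of that list was 370 to 703 CPM in Mbd3del mice against 127 to 314 CPM in control mice, and that of 9 plasmacytoid dendritic cell marker genes was 2215 to 4812 CPM against 1031 to 2645 CPM. NK and innate lymphoid marker genes, 8 in all, summed to 612 to 831 CPM in Mbd3del and 584 to 782 CPM in control BLPs. Of the neutrophil and monocyte list, Ltf and Ngp were at 0 in all Mbd3del BLP libraries, and Elane, Ltf and Camp in all control ones. Of the plasmacytoid list Klk1 was at 0 in the Mbd3del ones. The part of these cells in the members' levels was not tested.

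**Figure D3:**
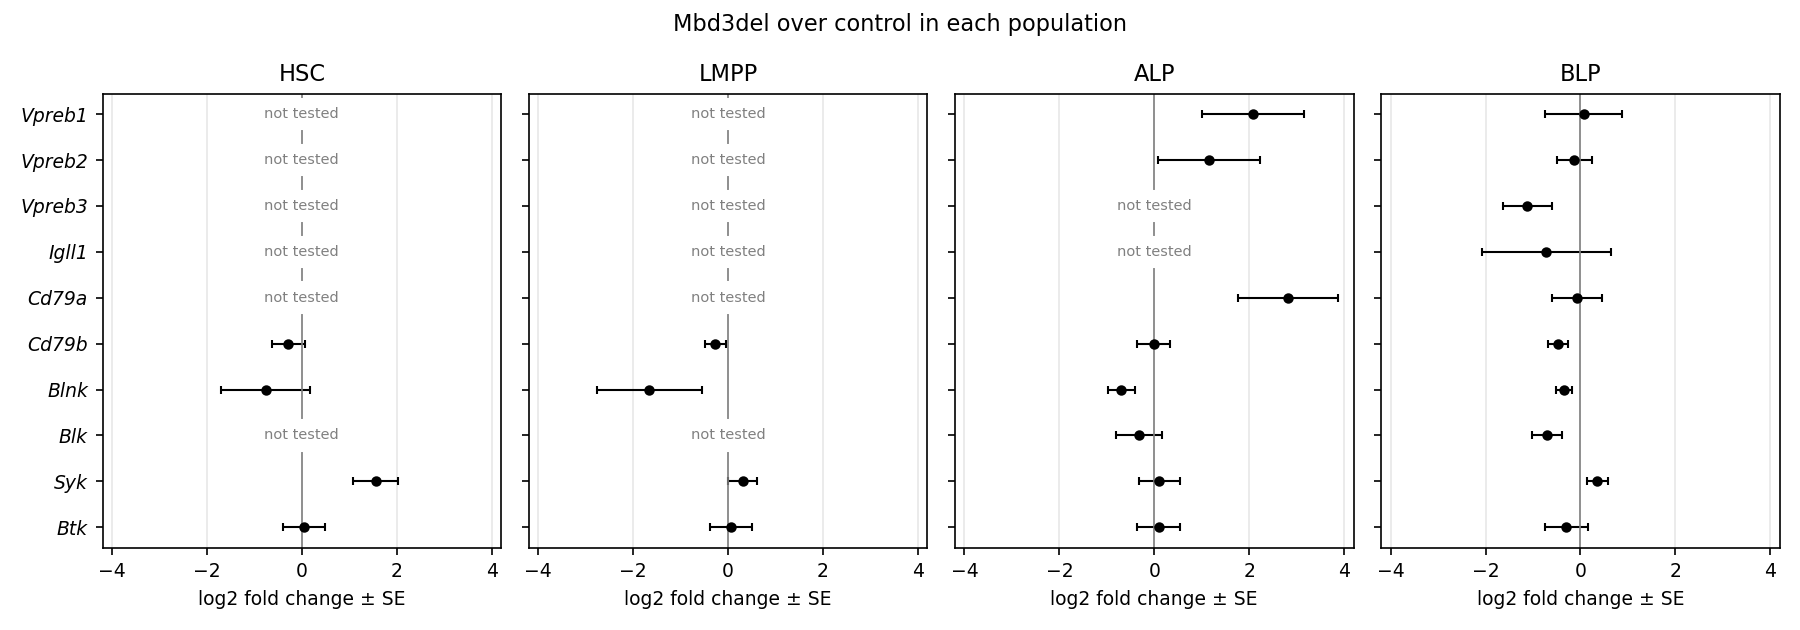
Log2 fold change ± SE, Mbd3del over control, of each gene in each population; genes under the expression filter are marked as not tested. None passed the test. The widest errors are those of Igll1 in BLPs and of the low genes in LMPPs and ALPs.

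The difference of a step between genotypes was tested as an interaction. No member was called at any of the 3 steps, and 0.0% of all genes tested were called at each. Members at an unadjusted p under 0.05 numbered 1, 0 and 3 at the steps to LMPPs, ALPs and BLPs, by edgeR and also by DESeq2, which called 0 members as well. Of all genes tested by edgeR, 645 of 12576, 552 of 12237 and 489 of 12123 had such a p. At the step to BLPs the 3 members were Cd79a (-2.85 ± 0.89), Vpreb3 (-3.59 ± 1.40) and Igll1 (-5.01 ± 2.13), each a smaller fitted rise in Mbd3del than in control mice, with an edgeR adjusted p = 0.99997. In control ALPs these genes had 65, 13 and 6 counts in all over 5 libraries. The sizes of these differences therefore rest on a start near 0 and depend on the prior count. For Igll1 the step in control mice alone was not tested by edgeR. The step values therefore do not show that the genotypes differ at any step.

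The spread between BLP libraries, each from 1 mouse, was uneven among the genes. With 1 pool per mouse, differences between mice, pools and libraries cannot be told apart. The SD of log2(CPM + 1) for Igll1 was 3.66 over the 5 control BLP libraries, larger than that of 99.9% of the 6766 genes with at least 20 CPM in that group, and 1.43 over the 5 Mbd3del BLP libraries, larger than that of 97.9% of 6617 genes. Vpreb1 had SDs of 0.65 in Mbd3del and 2.26 in control BLPs, Cd79a 0.79 and 1.46, and Vpreb3 0.87 and 1.17, while the medians over all genes were 0.44 and 0.49. Blnk had 0.19 and 0.32 and Cd79b 0.28 and 0.36, below those medians. Vpreb2, at 0.50 and 0.62, lay closer to the medians. Btk went the other way, with 1.002 in Mbd3del and 0.66 in control BLPs. The difference in spread between genotypes was not tested.

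The same BLP libraries were high for several of these genes. Control mouse10357 and mouse10358 had the highest values of Igll1, Vpreb1, Vpreb2, Vpreb3 and Cd79a among control BLPs, and these mice were not the ones whose sex label was in doubt. Pax5, the B lineage commitment factor, had 16.5, 8.74, 1.35, 0.975 and 13.6 CPM in Mbd3del BLPs against 19.7, 15.5, 1.78, 4.98 and 1.95 CPM in control BLPs, also highest in those 2 control mice. Ebf1, which acts earlier, had 171, 215, 98.2, 112 and 188 CPM against 193, 244, 224, 202 and 279 CPM and did not follow them. Among markers of mature B cells, Ms4a1 and Fcer2a were at 0 in every BLP library, whereas Ighd had 25.2 to 86.5 CPM in Mbd3del and 31.0 to 79.7 CPM in control BLPs. Jchain, a plasma cell marker, had at most 5.596 CPM in Mbd3del BLPs and 38.7 CPM in control mouse10358, against at most 11.6 CPM in the other control BLPs, and Igkc had at most 7.28 CPM in Mbd3del and 6.93 CPM in control BLPs, where the highest was again control mouse10358. Their part in the high values of that mouse was not tested. The summed level of the 12 mature B and plasma cell marker genes was 598 to 889 CPM in Mbd3del and 582 to 1005 CPM in control BLPs. The erythroid marker sum was at most 5.66 CPM in any BLP library.

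**Figure D4:**
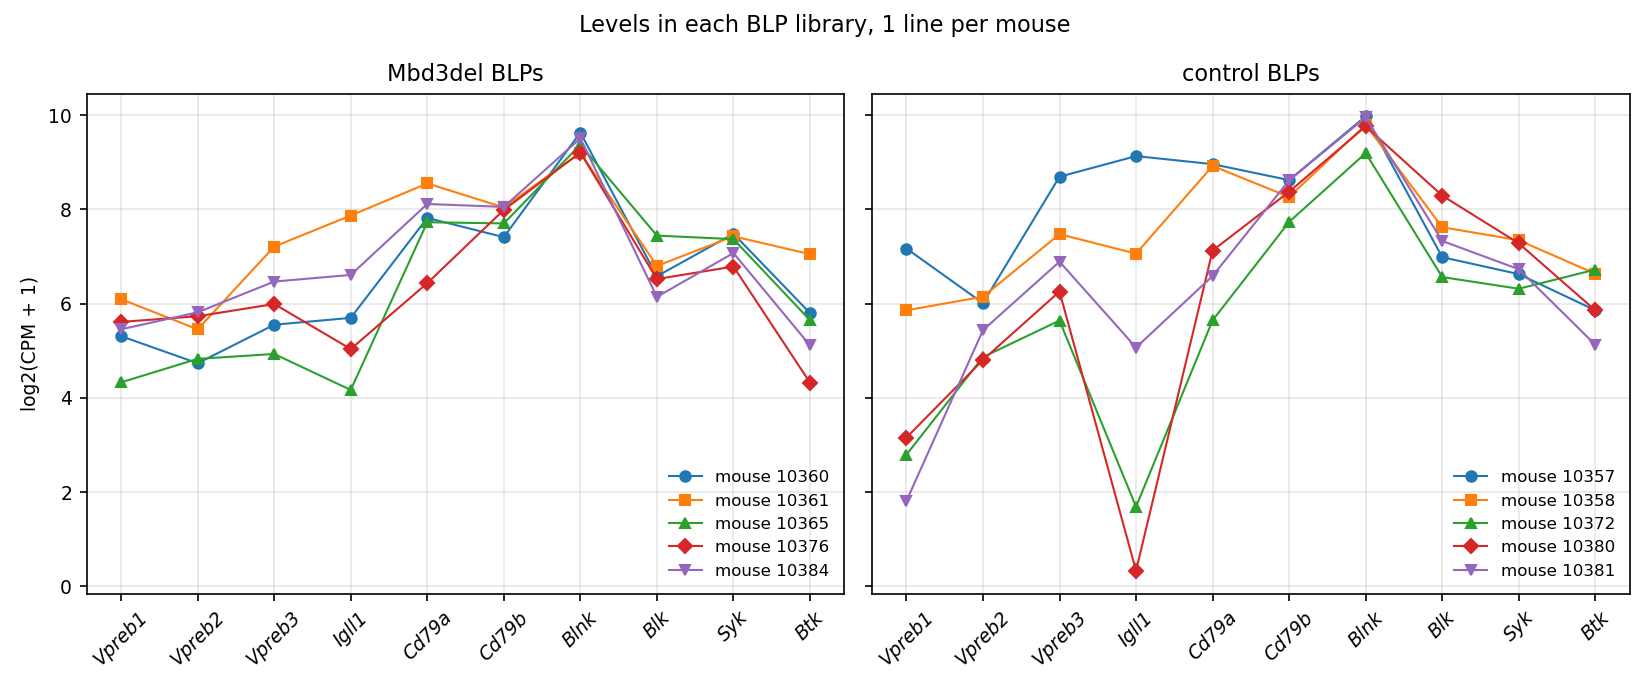
Level of each gene in each BLP library as log2(CPM + 1), with 1 line per mouse, in Mbd3del mice (left) and control mice (right). The control lines fan out over Vpreb1 and Igll1, from 0.256 to 561 CPM for Igll1, and come together at Cd79b and Blnk. The Mbd3del lines stay closer at Igll1 and Vpreb1, but spread more widely than the control lines at Btk.

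The share of Vpreb1 among the counts of Vpreb1 and Vpreb2 also differed from library to library. It was 60.1%, 61.1%, 41.1%, 47.9% and 43.6% in Mbd3del BLPs against 69.3%, 44.9%, 17.4%, 22.7% and 5.59% in control BLPs. The Wilson 95% intervals of control mouse10357 (66.8% to 71.7%) and control mouse10381 (2.97% to 10.3%) did not meet, at totals of 1351 and 161 counts. Intervals cover counting error only, and reads shared by the copies can move these shares.

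Other genes of the pathway were read from a list of 34. Between genotypes edgeR called 0 of the 28, 26, 30 and 31 genes tested in HSCs, LMPPs, ALPs and BLPs, with 3, 3, 1 and 1 at an unadjusted p under 0.05. Of all genes tested, 467 of 11358, 566 of 10918, 253 of 11009 and 895 of 10772 had such a p. At the step to LMPPs 4 of 29 tested genes rose and 1 fell in Mbd3del mice, and 3 of 27 rose and 1 fell in control mice, with medians of 0.03 and 0.45 on the log2 scale against -0.04 and -0.01 over all genes tested. Among all genes, 340 rose and 426 fell of 11365 tested in Mbd3del mice, and 305 rose and 350 fell of 11043 in control mice. Ighm, the µ heavy chain locus, rose by 6.54 ± 0.31 to 1366 ± 270.0 CPM in Mbd3del LMPPs, against 15.1 ± 4.65 CPM in Mbd3del HSCs (edgeR adjusted p = 1.32e-08). In control mice it rose by 6.73 ± 0.38 to 1092 ± 418 CPM in LMPPs, against 10.6 ± 3.64 CPM in HSCs (adjusted p = 3.50e-07). Heavy chain locus transcripts were thus abundant in LMPPs, where surrogate light chain transcripts were near 0. The linker Lat2 rose by 5.19 ± 0.51 in Mbd3del and 5.38 ± 0.56 in control mice (adjusted p = 1.43e-05 and 7.42e-05). Pik3r1, a regulatory subunit of phosphoinositide kinase, fell by 1.32 ± 0.26 in Mbd3del and 2.09 ± 0.25 in control mice (adjusted p = 0.00527 and 0.000230). At the step to ALPs 1 gene of the list rose in Mbd3del mice, Ighm by 0.84 ± 0.18 (adjusted p = 0.0262), and 0 in control mice. At an unadjusted p under 0.05 there were 2 in Mbd3del and 8 in control mice, with medians of 0.27 and 0.72 on the log2 scale against -0.01 and 0.02 over all genes tested, and 24 of 30 and 25 of 28 tested genes had positive values. Of all genes tested, 1.11% in Mbd3del and 0.469% in control mice rose at this step. An unadjusted p under 0.05 was reached by 1173 of 11082 and 851 of 10871. Between ALPs and BLPs edgeR called 0 of 30 in each genotype, with 6 in Mbd3del and 2 in control mice at an unadjusted p under 0.05. Of all genes tested, 840 of 10842 in Mbd3del and 474 of 10905 in control mice had such a p.

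Of a list of 14 regulators of these genes, few were called at a step by edgeR: 2 rose and 1 fell of 7 tested at the step to LMPPs in each genotype, 2 of 8 rose at the step to ALPs in each, and 2 of 11 in Mbd3del and 2 of 13 in control mice rose at the step to BLPs. The shares of all genes tested that rose at these steps were 2.99%, 1.11% and 0.507% in Mbd3del mice. In control mice they were 2.76%, 0.469% and 0.238%. Ebf1 rose at the step to ALPs by 5.34 ± 1.08 in Mbd3del mice (edgeR adjusted p = 0.0163) and 7.60 ± 1.10 in control mice (0.00273). It averaged 1.30 ± 2.22 CPM in Mbd3del and 0.110 ± 0.106 CPM in control LMPPs, and 48.3 ± 25.2 and 26.3 ± 15.6 CPM in ALPs (SD). A gene near 0 before a step could be seen to rise but not to fall, which the shares over all genes do not allow for. Its fitted change also depends on the prior count. At the step to BLPs Ebf1 rose again, by 1.75 ± 0.36 in Mbd3del (0.0394) and 3.22 ± 0.38 in control mice (0.000946). Irf8 rose to 520 ± 208 CPM in Mbd3del ALPs and 558 ± 169 CPM in control ALPs, by 3.66 ± 0.54 (0.00189) and 3.93 ± 0.56 (0.00273). Pou2af1, the co-activator of octamer factors, rose at the step to BLPs in control mice by 8.71 ± 1.14 (0.00186). It too began near 0, with 0.0482 ± 0.0664 CPM in control ALPs and 30.2 ± 25.2 CPM in control BLPs. Foxo1 fell by 2.88 ± 0.81 in Mbd3del LMPPs relative to HSCs (0.0454) and fell by 2.49 ± 0.59 in control LMPPs (0.0240). Between genotypes edgeR called 0 regulators in each population, and at an unadjusted p under 0.05 there were 2 in BLPs and 0 elsewhere. Of all genes tested in BLPs, 895 of 10772 had such a p.

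The parallel receptor of T cell precursors was read as well. Of 10 counterparts, Ptcra and Cd3e, which encode parts of the pre-T cell receptor, were at 0 in every library of every population in both genotypes. The other CD3 chains were not uniformly absent. Among ALPs and BLPs, Cd3d was at 0 only in control BLPs, and Cd3g had counts only in control BLPs. The signalling partners were not absent: Cd247 rose by 6.02 ± 0.80 to 50.5 ± 23.9 CPM in Mbd3del ALPs (edgeR adjusted p = 0.000765). Zap70, the Syk relative of T cells, rose by 7.16 ± 1.43 to 10.1 ± 7.29 CPM in control ALPs (0.0236). In the LMPPs of the same genotype Cd247 had 0.842 ± 1.08 CPM and Zap70 0.0475 ± 0.106 CPM. Both could thus be seen to rise but not to fall. Lcp2, the relative of Blnk, fell at the step to ALPs in Mbd3del mice by 2.22 ± 0.25 (0.000303), where Blnk rose. Of 5 counterparts tested at that step, 1 rose and 1 fell in Mbd3del mice and 1 rose in control mice. In each genotype 4 of the 5 had positive values. Of all genes tested, 1.11% rose and 119 of 11082 fell in Mbd3del mice, and 0.469% rose in control mice. Between genotypes edgeR called 0 of 5 tested counterparts in ALPs.

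Genes with the most similar course were sought among 8556 genes with at least 20 CPM in their highest group, by the root mean square difference of centred mean log2(CPM + 1) over the 8 groups. Nearest to Igll1 were Cecr2 (0.43), Vpreb1 (0.55), Vpreb2 (0.60), Ly6c2 (0.68) and Spib (0.71). Nearest to Cd79a were Ly6c2 (0.83), Cecr2 (0.85), Vpreb2 (0.88), Mzb1 (0.92) and Igll1 (0.97). Nearest to Syk were Zgrf1 (0.21), Pold1 (0.28), Rasgrp2 (0.29), Erp29 (0.30) and Map4k4 (0.31). Of the other members, Btk stood 688th and Cd79b 2447th from Syk, and Cd79b 521st from Cd79a. The 8 group means share libraries and mice, and counts of Ly6c2, a member of a multigene family, are uncertain.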

How the data were processed

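Each library held RNA of 1 pool of sorted cells (150 for HSCs and 100 for the others in the sample labels, whereas the series text gives these numbers the other way round), amplified by Smart-seq2, which marks neither strand nor molecules. The authors deposited raw read counts per gene, made per the submitters' processing notes with STAR 2.5.2b and HTSeq 0.6.1p1 on GRCm38. No source used here gives the annotation release or strand setting. Of 128910 rows, 79325 named repRegion (0.205% to 2.28% of a library's counts) stayed out of library sizes and tests. Symbols and exon lengths came from GENCODE M21, which matched 49326 of 49585 gene identifiers. Tests used edgeR 4.0.16 (R 4.3.3), with its quasi-likelihood F test (robust, TMM scaling, minimum count 10 and minimum total 15), fitted separately for 13 comparisons, of which 3 were also run on simulated data. Plain CPM and TPM are shown without TMM factors, which ranged from 0.804 to 1.22. DESeq2 1.42.0, size factors of DESeq2 in edgeR, no filter, a joint fit of all libraries, the mouse as a block, leaving out mice, and edgeR's newer estimator, which was added after seeing the data, were alternatives. The labels pair the 4 populations of a mouse; deviations of 2 libraries from their group means correlated at 0.0229 on average within a mouse and -0.00546 between mice. The 10 genes and the other lists were chosen with earlier results of these data known. All 10 genes are named; from other lists, at most 4 called genes per comparison with at least 5 CPM, by fold. Pax5, and marker genes given at 0, were named after their values were seen. P-values measure the spread between libraries of different mice, in which mouse, pool and library preparation cannot be told apart.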

Additional observations from a re-analysis of the deposited data

Results flagged for a closer look

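In each of the 80 sets of 5 libraries (10 genes in 8 groups), the highest and lowest value were compared with the rest on the log2(CPM + 1) scale by Dixon's test, and 16 held a value that stood apart; chance gives about 1 in 20 where values vary continuously. That rate does not hold for sets of mostly 0 counts, where a single count can stand apart, as for Vpreb2 in HSCs and LMPPs (1 count and 4 libraries at 0 in each case). Most were low levels: Vpreb1 with 1.25 CPM in the HSCs of control mouse10381, 1.22 CPM in the LMPPs of Mbd3del mouse10376 and 1.58 CPM in the LMPPs of control mouse10357, and Vpreb2 with 0.1996 CPM in the HSCs of control mouse10357, 0.194 CPM in the LMPPs of Mbd3del mouse10384 and 0.119 CPM in the LMPPs of control mouse10381. Vpreb3 stood high at 1.62 CPM in the HSCs of control mouse10358, at 5.25 CPM in the LMPPs of control mouse10372, at 8.63 CPM in the ALPs of Mbd3del mouse10384 and at 1.27 CPM in the ALPs of control mouse10381. Cd79a reached 4.44 CPM in the HSCs of Mbd3del mouse10365. Among well counted genes, Syk was low at 61.4 CPM in the ALPs of Mbd3del mouse10365 and high at 334 CPM in the ALPs of control mouse10372, and Btk was high at 151 CPM in the LMPPs of Mbd3del mouse10365. Blnk was low at 586 CPM in the BLPs of control mouse10372, and Blk was low at 7.34 CPM in the ALPs of control mouse10357.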

How the results depend on the processing

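The count of members called between genotypes, and for the interactions, was 0 under every alternative, and single genes reversed no call. Of 1280 values of single genes under an alternative, 23 passed the threshold only there, 37 no longer passed it, and 90 changed sign while uncalled. At the step to LMPPs the joint fit called 2 members in control mice, Blk and Syk, against 0. Among all genes tested, 608 of 13800 rose in the joint fit, against 305 of 11043 in the main fit. At the step to ALPs in control mice the count was 1 and became 0 with no filter, 2 by DESeq2, 4 in the joint fit, 2 with the newer estimator, 0 without mouse10372 and mouse10381, and 0 to 1 when single mice were left out. In Mbd3del mice it was 4 and became 2 with no filter, 2 with the replicate block, and 2 to 4 without single mice. Among all genes tested, 123 of 11082 rose in the main fit. In the same order 127 of 22287 and 84 of 11082 rose, and 58 to 122 without single mice. At the step to BLPs in control mice it was 5 and became 8 by DESeq2, 3 with the replicate block, 2 without mouse10372 and mouse10381, and 2 to 6 without single mice. Among all genes tested, 26 of 10905 rose in the main fit. In the same order 91 of 23295, 13 of 10905 and 7 of 11149 rose, and 8 to 29 without single mice. In Mbd3del mice it was 4 and became 7 by DESeq2, 6 with its size factors in edgeR, 5 with no filter, 2 in the joint fit, 7 with the newer estimator, 5 with the replicate block and 3 to 5 without single mice. Among all genes tested, 55 of 10842 rose in the main fit. In the same order 198 of 21775, 62 of 10842, 81 of 21775, 26 of 13800, 118 of 10842 and 37 of 10842 rose. Without single mice 16 to 38 rose. The cause of these changes was not tested. Beyond the calls named in the report, the block changed none. Depth limits the surrogate light chain genes in HSCs and LMPPs, where most libraries held under 10 counts.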
